A study of Mus musculus with 26 samples.

Results

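These are 2436 stretches of chromatin in mouse embryonic stem cells that carried bivalent signal in both sequential ChIP (reChIP) directions and a region of total H3K27me3, but no region of total H3K4me3. They were chosen from the region tables of E14, a non-clonal wild-type stem cell line grown in serum and LIF. A region was taken when its coordinates were identical in the K4-K27 table (H3K4me3 antibody first, H3K27me3 second) and in the K27-K4 table (the reverse order). It also had to share at least 1 bp with an E14 total H3K27me3 region and none with an E14 total H3K4me3 region. Of 21857 regions shared by both reChIP directions, 2436 (11.1%) met this rule. Of the others, 2774 overlapped both totals, 11334 overlapped total H3K4me3 alone and 5313 overlapped neither.

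The study compared E14 cells (2 replicates), the wild-type clones 57 and 58 (WT), and clones 43 and 53, in which Dppa2 and Dppa4 were both knocked out (DKO). The clones derive from E14, and each gave 1 library per ChIP: K4-K27, K27-K4 and the totals of both marks, taken from a set-aside portion of the first eluate of the same reChIP. The study calls these set-aside totals noisy, likely for their low starting material. It classed its own bivalent regions with independent total ChIPs from more cells. Lack of a total H3K4me3 region here therefore need not mean lack of the mark. IgG-IgG controls were available for E14 replicate 1 and WT clone 57, and none was analysed here for DKO. The labels put all clone libraries in sequencing batch C, so DKO and WT were compared within a batch, whereas E14 replicate 1 was in batch A and E14 replicate 2 in batch B. A group of clones is 2 independent lines, so a difference between DKO and WT was measured over 2 lines each. Values are the deposited log2 of RPM per kb of region, where RPM is a library's read count scaled to its sequencing depth.

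The 26 libraries held 6741244 to 47903462 reads, and the median H3K27me3-only region held 18 to 462.5 reads in them. The K4-K27 library of WT clone 57 stood apart, with 104 of the 2436 regions at 0 reads against 20 in WT clone 58 and 59 and 22 in the DKO clones, and so did its IgG-IgG library, with 136. The deposited tables enter 0 reads as 0.9 reads. Of 10 stem cell marker genes, 9 had a total H3K4me3 region at the promoter in E14 and 10 in WT and in DKO, and none of these promoters was among the 2436 regions. Of 5 genes of other lineages, 1 (Myod1) had such a region in E14, 2 (Myod1 and Gfap) in WT and 0 in DKO. Dppa2 and Dppa4 kept such a region in DKO, so these files give no check of the knockout.

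H3K4me3, laid down by MLL and SET1 complexes, marks the start sites of active and poised genes. H3K27me3, laid down by the Polycomb complex PRC2, marks genes held silent. In embryonic stem cells, many CpG island promoters of developmental genes carry both, which is termed bivalent chromatin, and many lose one of the marks on differentiation. A reChIP is meant to select nucleosomes that carry both marks, whereas totals collected separately cannot tell one nucleosome with both marks from a mixture of cells or alleles. By the study's account, its H3K4me3 antibody can also bind H3K4me2, so bivalent regions at enhancers may carry that mark instead. Depleting H3K27me3 also depleted reChIP signal at the bivalent regions it tested. It still calls carry-over from the first antibody hard to remove, and asks for both directions. Dppa2 and Dppa4 are a pair of DNA-binding proteins of early embryos and stem cells that are needed to keep both marks at a set of bivalent promoters.

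Below are the 300 bp with the most CpG dinucleotides in 7 of the regions, read from the plus strand of mm10 with each CpG in capitals. Nkx2-4 and Colgalt2 show regions whose reChIP signal was high in every clone. Tbr1, Bcl11b and Fem1al show regions that were lower in DKO. Sfmbt2 and Fndc3a show the largest excess of total H3K27me3 and of total H3K4me3 in the clones.
Nkx2-4, start of the gene, chr2:147084681-147084980: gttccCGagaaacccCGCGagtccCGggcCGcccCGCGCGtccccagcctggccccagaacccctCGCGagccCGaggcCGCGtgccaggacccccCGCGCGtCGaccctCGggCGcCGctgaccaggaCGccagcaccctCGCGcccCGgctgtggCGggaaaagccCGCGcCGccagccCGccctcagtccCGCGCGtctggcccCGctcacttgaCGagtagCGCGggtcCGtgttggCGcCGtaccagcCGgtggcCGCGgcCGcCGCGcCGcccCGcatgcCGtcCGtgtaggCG
Colgalt2, first exon, chr1:152400138-152400437: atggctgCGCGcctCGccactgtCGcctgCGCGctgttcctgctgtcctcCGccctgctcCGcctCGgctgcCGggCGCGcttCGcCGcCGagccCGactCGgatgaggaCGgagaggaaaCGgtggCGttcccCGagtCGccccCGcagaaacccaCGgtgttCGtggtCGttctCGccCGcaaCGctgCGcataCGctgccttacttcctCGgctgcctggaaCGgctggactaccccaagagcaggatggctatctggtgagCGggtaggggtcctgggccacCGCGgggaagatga
Tbr1, coding exon, chr2:61811736-61812035: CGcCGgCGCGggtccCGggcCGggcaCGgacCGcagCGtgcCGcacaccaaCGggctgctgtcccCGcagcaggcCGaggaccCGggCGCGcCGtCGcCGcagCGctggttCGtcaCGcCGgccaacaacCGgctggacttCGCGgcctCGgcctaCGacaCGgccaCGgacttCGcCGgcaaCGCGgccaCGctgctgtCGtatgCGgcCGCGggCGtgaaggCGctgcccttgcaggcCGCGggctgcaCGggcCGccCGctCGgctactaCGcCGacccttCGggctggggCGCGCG
Bcl11b, coding exon, chr12:107915535-107915834: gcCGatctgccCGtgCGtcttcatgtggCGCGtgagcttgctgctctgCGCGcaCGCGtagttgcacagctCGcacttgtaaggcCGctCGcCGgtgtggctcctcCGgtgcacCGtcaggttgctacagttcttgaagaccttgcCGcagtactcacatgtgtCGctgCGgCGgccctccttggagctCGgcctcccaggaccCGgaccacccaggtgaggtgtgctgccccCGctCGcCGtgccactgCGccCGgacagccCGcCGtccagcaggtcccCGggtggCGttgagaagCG
Fem1al, coding exon near the start site, chr11:29824914-29825213: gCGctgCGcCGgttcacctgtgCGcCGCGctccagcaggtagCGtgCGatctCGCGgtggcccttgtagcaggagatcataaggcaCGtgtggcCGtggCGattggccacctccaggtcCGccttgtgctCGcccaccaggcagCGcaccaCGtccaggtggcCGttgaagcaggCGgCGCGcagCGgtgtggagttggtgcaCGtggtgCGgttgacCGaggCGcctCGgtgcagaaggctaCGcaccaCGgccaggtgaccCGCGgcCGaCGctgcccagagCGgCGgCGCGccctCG
Fndc3a, in the gene outside its exons and 13 bp from a start site, chr14:72710016-72710315: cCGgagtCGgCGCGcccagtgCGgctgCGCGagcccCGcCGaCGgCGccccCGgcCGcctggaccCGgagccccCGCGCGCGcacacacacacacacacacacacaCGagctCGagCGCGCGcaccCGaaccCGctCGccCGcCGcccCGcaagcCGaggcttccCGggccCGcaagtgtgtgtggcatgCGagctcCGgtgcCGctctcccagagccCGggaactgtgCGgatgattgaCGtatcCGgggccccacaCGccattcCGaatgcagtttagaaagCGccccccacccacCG
Sfmbt2, intergenic upstream, chr2:10367205-10367504: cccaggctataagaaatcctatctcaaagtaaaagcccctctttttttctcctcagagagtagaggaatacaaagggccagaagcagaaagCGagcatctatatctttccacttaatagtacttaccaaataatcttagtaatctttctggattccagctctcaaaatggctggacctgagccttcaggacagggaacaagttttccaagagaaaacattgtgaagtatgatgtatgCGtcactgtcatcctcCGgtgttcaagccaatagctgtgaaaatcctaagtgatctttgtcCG
These windows held 50 CpGs at Nkx2-4, 36 at Colgalt2, 53 at Tbr1, 31 at Bcl11b, 38 at Fem1al and 43 at Fndc3a, but 4 at Sfmbt2. The densest window of the median H3K27me3-only region held 15 CpGs, against 36 in regions with both totals, 31 in regions with total H3K4me3 alone and 15 in regions with neither.

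The H3K27me3-only regions lay away from promoters more often than other regions with a total. A promoter here is 1.5 kb either side of a RefSeq start site. Only 825 of the 2436 (33.9%) covered a promoter, against 78.1% of regions with both totals, 75.8% of those with H3K4me3 alone and 25.2% of those with neither. Of the rest, 312 touched an exon, 594 lay in introns and 705 were intergenic. A CpG island, defined from the sequence, was present in 829 (34.0%), against 81.1% of regions with both totals and 21.5% of those with neither. The median CpG density was 1.77 per 100 bp, below the 2.37 of regions with both totals, the 2.82 of those with H3K4me3 alone and the 2.00 of those with neither. The median width was 3750 bp, with extremes of 300 and 42000 bp, and regions with both totals were wider at 6450 bp.

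Promoter and island divided the set into 4 groups, a division made after the values had been seen. There were 610 promoter regions with an island (median width 7050 bp), 215 promoter regions without one (3750 bp), 219 regions away from promoters with an island (5550 bp) and 1392 regions with neither (2400 bp). The densest 300 bp of these groups held a median of 38, 15, 28 and 11 CpGs in that order.

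The edges of the rule were as follows. The overlap with total H3K27me3 was as short as 150 bp in 22 regions, its median was 1350 bp, and 124 regions were covered whole. A further 36 regions with neither total touched an H3K27me3 region without sharing a base. The nearest total H3K4me3 region lay a median of 33.9 kb away, although 31 regions had one within 1 kb and 298 within 5 kb. Just outside the rule, 18 regions with both totals shared only 300 bp with an H3K4me3 region.

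Most of the regions stood alone. Within 50 kb of each other they formed 1918 runs, of which 1565 were single regions and 15 held 5 or more. The longest run was 13 regions over 110.1 kb of the beta-protocadherin cluster on chromosome 18, 12 of them at promoters. The protocadherins of this cluster are cell adhesion molecules that single neurons express in differing combinations. A run of 10 regions over 96.3 kb near Pja1 on the X chromosome held no promoter and no island. A run of 9 over 163.35 kb around H2-T3 lay in the class I histocompatibility cluster, a family of similar genes, and the effect of similar copies on the values there was not tested.

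In E14, whose libraries chose the regions, the values are a description. The regions' median total H3K4me3 was −0.42 in replicate 1 and −0.57 in replicate 2, above the −0.83 of the IgG-IgG control. That of total H3K27me3 was 0.28 and 0.30. Both reChIPs were above both totals, with medians of 0.97 and 0.70 for K4-K27 and of 0.75 and 1.34 for K27-K4. Total H3K4me3 was nevertheless above IgG-IgG in 84.7% and 75.4% of the regions, and more than 2-fold above it in 14.3% and 12.6%. Total H3K27me3 was more than 2-fold above it in 56.9% and 59.7%, and K4-K27 in 91.3% and 90.6%. The control is that of replicate 1, and replicate 2 was in another batch.

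The clones, which the rule did not use, gave the same regions the following medians. Total H3K27me3 was 0.67 and 0.26 in WT clones 57 and 58, and 0.45 and 0.29 in DKO clones 43 and 53. Total H3K4me3 was −0.24 and −0.46 in WT, and −0.82 and −0.64 in DKO. K27-K4 was 0.85 and 0.60 in WT, and 0.50 and 0.39 in DKO. K4-K27 was −0.00 and 0.31 in WT, and −0.04 and −0.11 in DKO. Both DKO clones were below both WT clones in K27-K4, in K4-K27 and in total H3K4me3, and the genotypes overlapped in total H3K27me3. With libraries centred, the median DKO minus WT difference in total H3K4me3 turned from −0.21 to 0.09.

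**Figure D1:**
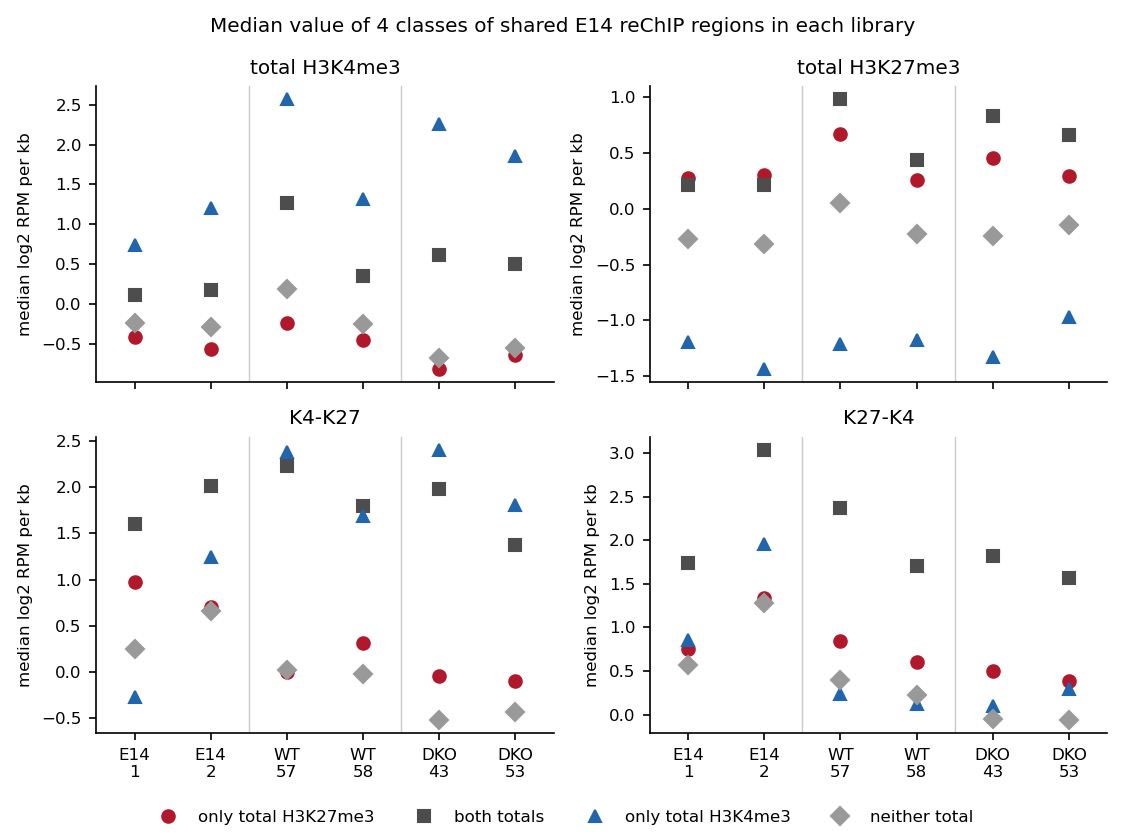
Median log2 RPM per kb of the 4 classes of shared E14 reChIP regions in each of the 24 ChIP libraries, with 1 panel per ChIP and libraries along the x axis. The H3K27me3-only regions (red circles) lie below regions with both totals (dark grey squares) in K4-K27 in every clone, and above regions with H3K4me3 alone (blue triangles) in total H3K27me3.

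Set beside the other shared regions in the 4 clones, the H3K27me3-only regions were poorest in both K4-K27 and total H3K4me3 among the classes with a total. The median total H3K4me3 was lower than that of regions with both totals by 1.22 ± 0.32 log2 units (SD, n = 4 clones) and lower than that of regions with H3K4me3 alone by 2.54 ± 0.56. Total H3K27me3 was 1.59 ± 0.29 higher than in regions with H3K4me3 alone, yet lower by 0.31 ± 0.09 than in regions with both totals. K4-K27 was lower than in regions with both totals by 1.81 ± 0.38, and K27-K4 was lower by 1.28 ± 0.18. Against regions with H3K4me3 alone, K4-K27 was lower by 2.03 ± 0.50 and K27-K4 was higher by 0.39 ± 0.22. Against regions with neither total, total H3K27me3 was higher by 0.56 ± 0.12 and K27-K4 by 0.45 ± 0.07, and total H3K4me3 was lower by 0.21 ± 0.15. Each of these differences had the same sign in all 4 clones, with an exact two-sided sign-flip p of 0.13, the smallest that 4 clones allow. K4-K27 was higher than in regions with neither total by 0.28 ± 0.21, in 3 of 4 clones (exact sign-flip p = 0.25). In E14, whose libraries chose the regions, some differences had the other sign. Against regions with H3K4me3 alone, K27-K4 differed by −0.10 and −0.62 in replicates 1 and 2, and K4-K27 by 1.25 and −0.55. Against regions with both totals, total H3K27me3 differed by 0.06 and 0.09.

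The region tables of the clones gave a partly different class to the same places. These tables differed in size. Total H3K4me3 held 21970 regions in E14, 31935 in WT and 33905 in DKO, and total H3K27me3 held 21527, 21436 and 32352. The effect of table size on the overlaps below was not tested. Of the 2436 regions, 1024 (42.0%) overlapped a WT total H3K4me3 region, so lack of an H3K4me3 region in E14 did not carry over to the WT clones in these. The share was 43.1% in regions with neither total, 89.3% in those with both and 91.3% in those with H3K4me3 alone. In the WT tables, 798 regions had both totals, 605 had H3K27me3 alone, 226 had H3K4me3 alone and 807 had neither. In the DKO tables the same classes held 552, 765, 131 and 988 regions. Only 407 had H3K27me3 alone in both genotypes. Of the 798 with both totals in WT, 471 also had both in DKO, whereas 167 had H3K27me3 alone there. The 798 were promoters in 64.9% and had an island in 70.9%, against 15.0% and 13.4% of the 605 with H3K27me3 alone.

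The reChIP tables were divided along the same lines. A WT K4-K27 region overlapped 1184 of the regions (48.6%) and a DKO one 971 (39.9%). In regions with both totals these shares were 92.4% and 82.2%, and in regions with neither 35.6% and 24.5%. A WT K27-K4 region overlapped 1682 (69.0%) and a DKO one 1399 (57.4%), against 93.5% and 84.1% with both totals and 47.4% and 33.6% with neither. Among promoter regions with an island, 98.0% overlapped a WT K4-K27 region and 84.1% a DKO one. Among islands away from promoters, these shares were 82.2% and 48.4%. Among the 1392 regions with neither feature they were 21.6% and 20.5%. In total H3K4me3, promoter islands went from 89.3% in WT to 66.2% in DKO, and islands away from promoters from 66.7% to 36.1%. The differences between these shares are a description, since each table pools the clones of a genotype. K4-K27 held 26544 regions in WT and 28227 in DKO, and K27-K4 held 31231 and 28540.

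**Figure D2:**
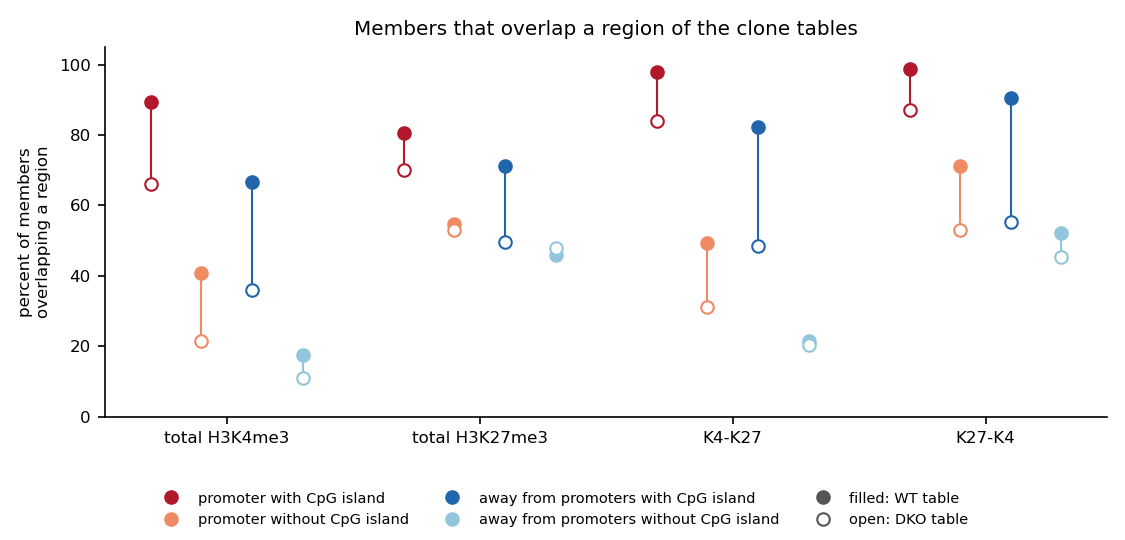
Percent of the H3K27me3-only regions that overlap, by 1 bp or more, a region of the WT tables (filled) and DKO tables (open), by ChIP and by group. Islands away from promoters fall from 82.2% to 48.4% in K4-K27 and from 90.4% to 55.3% in K27-K4, whereas regions with neither feature are at 21.6% and 20.5% in K4-K27.

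Signal within the set was compared between the groups. Promoter regions with an island had K4-K27 medians of 2.27 and 1.90 in WT clones 57 and 58, whereas regions with neither feature had −0.58 and −0.10. K27-K4 medians were 2.66 and 1.95 in the former and 0.45 and 0.29 in the latter. Islands away from promoters lay between, at 0.91 and 0.84 in K4-K27 and at 1.63 and 1.08 in K27-K4. Promoters without an island were nearer to the last group in K4-K27, at −0.11 and 0.19. Total H3K4me3 also followed this order, with WT medians of 1.01 and 0.17 at promoter islands and −0.74 and −0.70 at regions with neither feature. Total H3K27me3 spanned less, from 1.26 and 0.69 at promoter islands to 0.44 and 0.08. The order of the groups in K4-K27 and K27-K4 was the same in both WT clones, and their differences were not tested.

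Across the 2436 regions, Pearson's r between CpG density and K27-K4 was 0.584 and 0.699 in E14 replicates 1 and 2, 0.575 and 0.541 in WT clones 57 and 58, and 0.359 and 0.363 in DKO clones 43 and 53. Between CpG density and total H3K27me3, r was −0.020 and −0.225 in E14, 0.244 and 0.188 in WT, and 0.068 and 0.166 in DKO. With IgG-IgG it was 0.149 in WT clone 57 and 0.318 in E14. These regions share libraries, depth and base composition, so the correlations are descriptions.

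**Figure D3:**
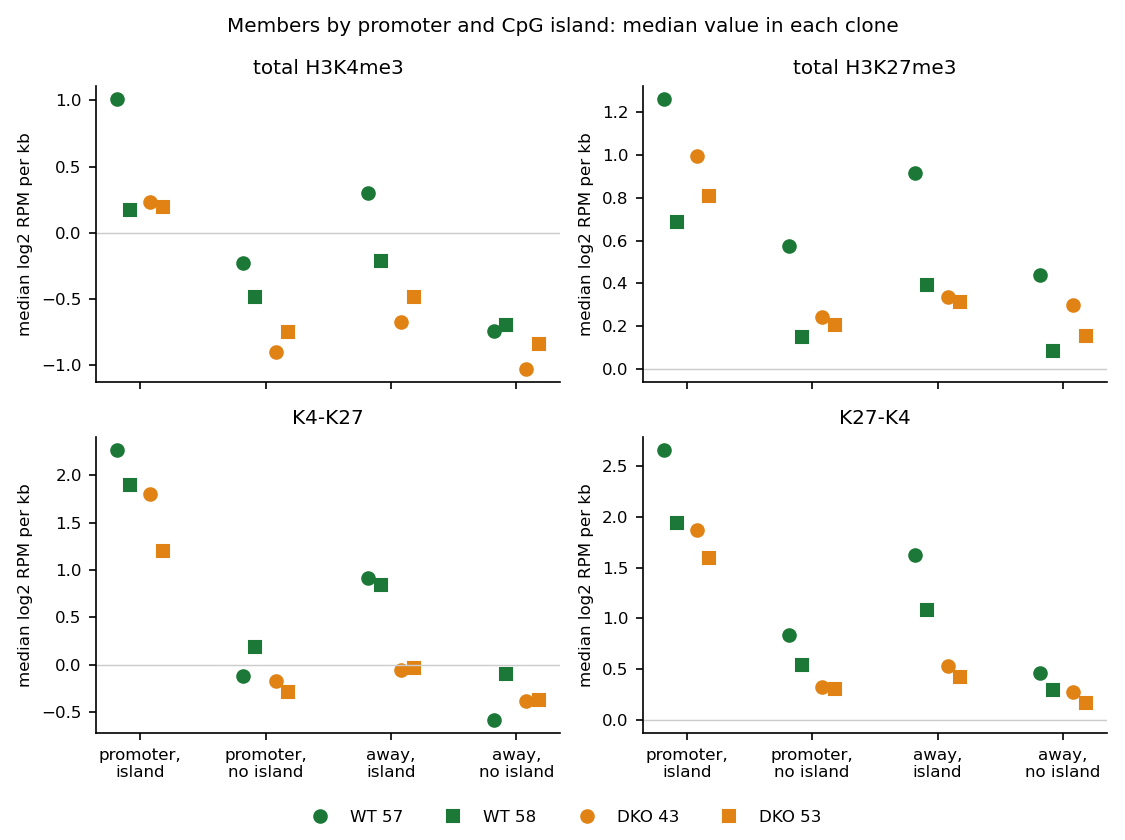
Median log2 RPM per kb of the 4 groups in WT clones 57 and 58 (green) and DKO clones 43 and 53 (orange), with 1 panel per ChIP. In K4-K27, islands away from promoters were at 0.91 and 0.84 in WT and at −0.05 and −0.03 in DKO, and regions with neither feature did not separate the genotypes.

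The 10 promoter regions with the highest mean E14 reChIP value were, in that order, Nkx2-4, Cpeb1, Gfra1, Tlx3, Pcdh7, Ccser1, Insm2, Map3k5, Rasgef1c and Nog, with means from 3.23 down to 2.97. Nkx2-4 and Tlx3 are homeobox factors of the forebrain and of sensory neurons, Insm2 is a zinc finger factor, and Nog encodes Noggin, a secreted inhibitor of BMP. The region at Nkx2-4 (chr2:147083101-147087450) had K27-K4 values of 2.81 and 4.34 in E14, 4.53 and 3.39 in WT and 3.16 and 3.03 in DKO. Its total H3K4me3 was −0.02 and 0.23 in E14 but 2.04 and 0.90 in WT, and 0.98 and 0.92 in DKO. The rule fixed the lack of an H3K4me3 region in E14, and E14 and the clones were sequenced in different batches, so these levels are not compared. Away from promoters the highest E14 means were at exons of Zfp316 (2.84) and Bcl11b (2.78).

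The widest region (42000 bp) spanned Otop2 and Otop3, genes of proton channels, and Ush1g. Wide regions also lay over exons of Lmx1b (38250 bp), a homeobox factor of limb and brain, and over the promoter of Pax7 (38100 bp), a factor of muscle stem cells. At Pax7, K27-K4 was 2.68 and 2.02 in WT and 2.16 and 1.99 in DKO, and total H3K27me3 was 1.87 and 1.03 in WT and 1.72 and 1.47 in DKO. Neither ChIP differed between genotypes at Pax7 by limma (adjusted p = 0.86 for K27-K4), with a fitted difference of −0.28 ± 0.48 (SE).

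The same 2 totals that the rule used in E14 could be compared in the clones. Averaged over both genotypes, total H3K27me3 was above total H3K4me3 by a median of 0.85 log2 units over the 2436 regions. By limma over all 24540 regions of the E14 K4-K27 table, with adjustment over all of them, 973 (39.9%) were called higher in H3K27me3 and 25 lower. A call needs a difference above 1 log2 unit and an adjusted p under 0.05. Over all regions tested, 13.0% were called higher and 40.6% lower. With each library centred on its own median, a shift of −0.85 was removed and the calls were 2115 higher and 5 lower, against 37.6% and 32.5% of all regions. Regions with neither feature were called most often (724 of 1392, 52.0%) and promoter islands least often (112 of 610, 18.4%).

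The largest excess of H3K27me3 was upstream of Sfmbt2 (chr2:10367101-10368900, intergenic, 1.55 kb from the start site). Sfmbt2 encodes a Polycomb group protein. There total H3K27me3 was 0.95 and 0.80 in WT and 1.23 and 0.32 in DKO, and total H3K4me3 was −3.09 and −1.45 in WT and −2.81 and −1.75 in DKO. All 4 clones showed the gap, which was 3.10 ± 0.41 (SE, adjusted p = 1.7e-10). The H3K4me3 values rest on 4 to 13 reads. A region 48.6 kb from Pja1 differed by 3.06 ± 0.36 and one 13.4 kb from Twist1, which encodes a mesoderm factor, by 2.95 ± 0.49.

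Of the 25 regions called the other way, the promoter of Fndc3a was the most extreme (chr14:72708001-72712800). Its total H3K4me3 was 1.65 and 0.29 in WT and 1.23 and 0.78 in DKO, and its total H3K27me3 was −1.15 and −1.90 in WT and −1.37 and −1.12 in DKO. The difference was −2.37 ± 0.32 (adjusted p = 6.2e-10). In E14, total H3K27me3 was −0.27 and −0.34 at Fndc3a, below total H3K4me3 at 0.28 and 0.77. This region thus met the rule by overlap, but its values went against its class in E14 as well. The promoters of Gm527 (−2.25), Itga3 (−2.22), which encodes an integrin, Vps13a (−2.03) and Pbx3 (−1.82), a homeobox factor, were called the same way.

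Colgalt2, which the study lists as a bivalent region for qPCR, and Gm6116, which it lists as an H3K27me3-only control, were both among the regions. At the Colgalt2 promoter (chr1:152398201-152402250), total H3K4me3 was 0.06 and −0.18 in E14, 1.77 and 0.41 in WT and 0.97 and 0.80 in DKO. Its K4-K27 was 3.12 and 2.74 in WT and 2.81 and 1.74 in DKO, above its total H3K4me3 by 1.61 ± 0.42 (adjusted p = 0.0028). The 12000 bp region at Gm6116 (chr5:74947201-74959200), a promoter without an island, had total H3K27me3 of 1.43 and 0.83 in WT and 1.54 and 1.01 in DKO. Its total H3K4me3 was −1.20 and −0.48 in WT and −1.15 and −0.77 in DKO, a difference of 2.10 ± 0.37 (adjusted p = 6.2e-07). At both places the DKO values of each ChIP lay within 1 log2 unit of WT by the fitted difference, and none was called. For K4-K27 these differences were −0.65 ± 0.61 at Colgalt2 and 0.96 ± 0.54 at Gm6116.

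The reChIPs exceeded their own first total mainly at promoter islands. K4-K27 was called above total H3K4me3 in 584 regions (24.0%) and below it in 3, against 10.4% and 1.17% of all regions tested. Of the 584, 412 were promoter islands (67.5% of that group) and 98 had neither feature (7.04%). With libraries centred, 305 were higher and 22 lower, against 5.38% and 4.78% of all regions. Without clone 43 the count was 2, without clone 53 it was 8, and in the WT clones alone it was 2. Over all regions tested these counts were 12, 58 and 14, against 2544 with all clones. K27-K4 was called above total H3K27me3 in 350 regions (14.4%), which was below the 43.1% of all regions tested, and below it in 8. Promoter islands made up 306 of the 350 (50.2% of that group). With libraries centred, a shift of 0.55 was removed and 81 were higher and 97 lower, against 25.2% and 3.89% of all regions, so this direction depends on the scaling.

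At Nkx2-4, K4-K27 was 2.39 ± 0.47 above total H3K4me3 (adjusted p = 9e-05) and K27-K4 was 2.12 ± 0.33 above total H3K27me3 (adjusted p = 1.8e-05). K27-K4 stood 2.24 ± 0.30 above total H3K27me3 at the promoter of Nrg1, a growth factor of the neuregulin family. At Tlx3, K4-K27 stood 1.93 ± 0.42 above total H3K4me3, and at Nog 1.99 ± 0.45. Tbx1, a T-box factor of the pharyngeal arches, had an excess of 1.84 ± 0.38 in the same comparison.

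Between the reChIP directions, K27-K4 was called above K4-K27 in 197 regions (8.09%) and below it in 6, against 3.50% and 29.0% of all regions tested. The centred counts were 1663 and 1, against 30.3% and 21.8% of all regions. Regions with neither feature gave 169 of the 197 calls, and promoter islands gave 6. With each clone left out in turn, the median difference over the set was 0.41 to 0.68, against 0.58 with all clones. The number of calls moved with the clone left out, in the set and over all regions tested. Of the 6 regions lower in K27-K4, 5 were promoters also called higher in total H3K4me3 (Gm527, Fndc3a, Vps13a, Elmod2 and Mcu).

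DKO clones had lower signal in a part of the set. In K27-K4, 308 regions (12.6%) were called lower in DKO and 19 higher, against 7.14% and 1.26% of all regions tested. In K4-K27, 124 (5.09%) were called lower and 8 higher, against 3.45% and 0.513%. In total H3K27me3 the counts were 102 lower (4.19%) and 3 higher, against 2.05% and 0.546%. In total H3K4me3 they were 81 lower (3.33%) and 1 higher, against 4.15% and 0.118%, so this share was below that of all regions. Shares in regions with both totals were 11.0% lower for K27-K4 and 6.52% for K4-K27. For regions with neither total they were 11.9% and 4.69%. For regions with H3K4me3 alone they were 3.17% and 2.21%. In total H3K4me3 the shares were 4.07% with both totals, 3.23% with H3K4me3 alone and 7.74% with neither. The differences between classes were not tested.

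Library scaling moved these counts. Centring removed shifts of −0.17, −0.13, −0.30 and −0.03 log2 units in K4-K27, K27-K4, total H3K4me3 and total H3K27me3. The centred counts were 102 lower and 1 higher in K4-K27 (2.09% and 0.481% of all regions tested) and 265 and 28 in K27-K4 (5.78% and 1.63%). They were 68 and 14 in total H3K4me3 (3.87% and 1.01%), and 121 and 6 in total H3K27me3 (2.15% and 0.652%). Single clones also moved the counts. For K4-K27 the count was 33 without clone 57, 79 without 58, 70 without 43 and 91 without 53, and over all regions tested it was 160, 498, 525 and 619. For K27-K4 it was 200, 492, 99 and 134 in the same order, against 1144, 2787, 695 and 806 over all. For total H3K27me3 it was 43, 187, 6 and 29, against 237, 775, 41 and 318. For total H3K4me3 limma gave 28, 320, 0 (32 at an unadjusted p under 0.05) and 1, against 602, 3470, 72 and 148. Both DKO clones lay below both WT clones in 40.6% of the regions in K27-K4 (27.1% of all regions tested), 34.6% in K4-K27 (22.3%), 35.0% in total H3K4me3 (23.5%) and 24.6% in total H3K27me3 (17.8%).

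Of the 219 islands away from promoters, 69 (31.5%) were lower in K27-K4 and 32 (14.6%) in K4-K27. Their K27-K4 medians were 1.63 and 1.08 in WT and 0.53 and 0.42 in DKO. Of the 610 promoter islands, 116 (19.0%) were lower in K27-K4 and 81 (13.3%) in K4-K27. Of the 215 promoters without an island, 36 (16.7%) were lower in K27-K4 and 6 (2.79%) in K4-K27. Of the 1392 regions with neither feature, 87 (6.25%) were lower in K27-K4 and 5 (0.359%) in K4-K27. With libraries centred, the K4-K27 counts were 17 (7.76%) at islands away from promoters and 81 (13.3%) at promoter islands, so the order of these groups in K4-K27 depends on the scaling. In K27-K4 the centred counts were 66 (30.1%) and 111 (18.2%). At promoters without an island they were 30 (14%) in K27-K4 and 3 (1.40%) in K4-K27, and at regions with neither feature 58 (4.17%) and 1 (0.0718%). In total H3K27me3, 28 islands away from promoters (12.8%) and 46 promoter islands (7.54%) were lower.

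**Figure D4:**
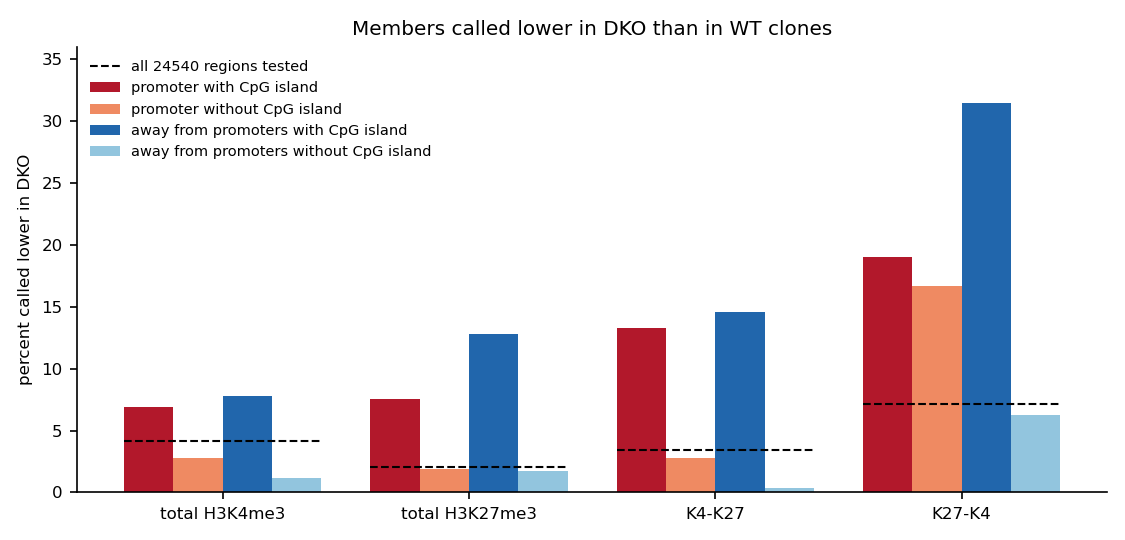
Percent of the H3K27me3-only regions called lower in DKO than in WT by ChIP and group, with dashed lines at the percent of all 24540 regions tested. Islands away from promoters reach 31.5% in K27-K4 and 14.6% in K4-K27, against dashed lines at 7.14% and 3.45%.

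Calls in different ChIPs were then set side by side. A region was called lower in at least 1 ChIP in 338 cases, of which 181 were in 1 ChIP, 70 in 2, 54 in 3 and 33 in all 4. The 338 are 13.9% of the set, against 9.87% of all regions tested. The 118 called in both reChIPs are 4.84%, against 2.65%, and the 33 are 1.35%, against 0.676%. The ChIPs of a clone share its cells, and the differences between these shares were not tested. Of the 124 K4-K27 calls, 118 (95.2%) were also called in K27-K4, where they made up 38.3% of 308. Over all regions tested these shares were 76.7% and 37.1%. Of the 33 regions lower in all 4 ChIPs, 24 were promoters, 7 touched an exon and 2 were intergenic, and 31 had an island. The 33 were chosen for these calls. Over the 11 settings compared for each region and ChIP (10 in 4 cases, and without the test of shared regions alone), a call in each setting was made for 23 of them in K27-K4, 15 in K4-K27, 2 in total H3K27me3 and 0 in total H3K4me3. Without clone 43 or clone 53, 0 regions were called in all 4.

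Tbr1 is a T-box factor of cortical neurons. Its region (chr2:61808401-61817100) overlapped its exons and lay 3.95 kb from the nearest start site. K4-K27 there was 1.91 and 1.88 in E14, 2.58 and 2.08 in WT, and −2.06 and −2.24 in DKO. K27-K4 was 1.89 and 2.91 in E14, 2.95 and 2.23 in WT, and −1.46 and −1.44 in DKO. Both DKO clones were below the IgG-IgG value of clone 57 (−0.87), and the groups did not overlap. The fitted differences were −4.48 ± 0.60 in K4-K27 (adjusted p = 1.3e-10) and −4.04 ± 0.35 in K27-K4 (adjusted p = 1.4e-26). Total H3K27me3 went from 1.68 and 0.89 in WT to −1.85 and −1.32 in DKO, and total H3K4me3 from 0.84 and 0.17 to −1.36 and −1.34. DKO fell by 2.88 ± 0.34 in total H3K27me3 and by 1.85 ± 0.48 in total H3K4me3 (adjusted p = 0.0053).

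Bcl11b encodes a zinc finger factor of T cells and neurons. Its region (chr12:107913601-107919900) overlapped an exon 83.5 kb from the nearest start site. K4-K27 was 3.03 and 2.51 in WT and −1.97 and −1.77 in DKO, on 475 and 384 reads against 17 and 24. K27-K4 was 3.59 and 2.76 in WT and −1.01 and −0.67 in DKO. The fitted differences were −4.63 ± 0.53 and −4.01 ± 0.37, and those of total H3K4me3 and total H3K27me3 were −1.99 ± 0.49 and −2.43 ± 0.34. Both DKO clones were low in all 4 ChIPs at Bcl11b, as at Tbr1.

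The promoter of Fem1al (chr11:29822251-29827800) had K27-K4 of 2.90 and 2.02 in WT and −1.21 and −1.08 in DKO, a difference of −3.61 ± 0.35. Thbs4, which encodes a thrombospondin of the matrix, fell by 4.75 ± 0.74 in K4-K27, with 150 and 137 reads in WT and 13 and 3 in DKO. Slc22a3, an organic cation transporter, fell by 3.62 ± 0.59 in K4-K27 and by 3.76 ± 0.35 in K27-K4. Ddx4, which encodes the germ cell helicase Vasa, fell by 3.71 ± 0.59 and 3.10 ± 0.35. Smpdl3a, 1 of the 2 promoters without an island among the 33, fell by 2.63 ± 0.47 in total H3K4me3 (adjusted p = 5.6e-06). Its total H3K4me3 was 1.52 and 0.42 in WT and −1.89 and −1.43 in DKO. The other, Npy2r, which encodes a neuropeptide Y receptor, fell by 2.17 ± 0.48 in that mark and was named after its values were seen.

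**Figure D5:**
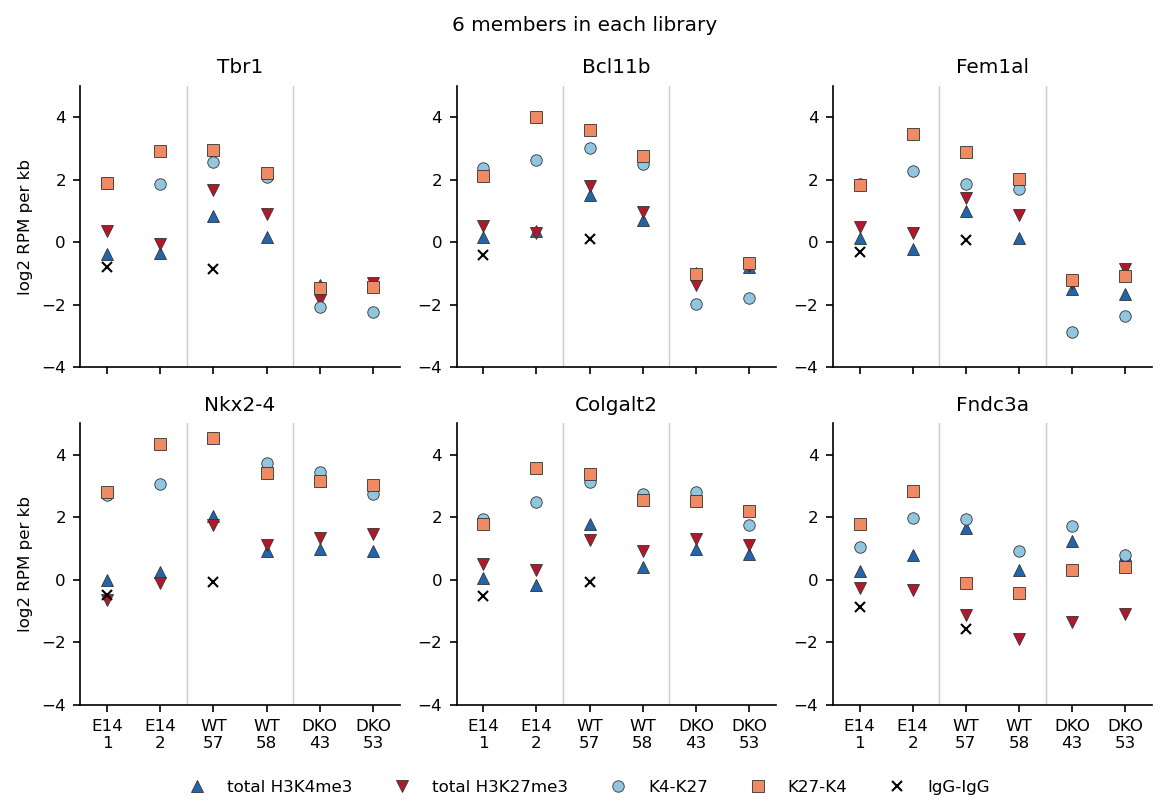
Values of 6 regions in each library (log2 RPM per kb), with E14 replicates, WT clones and DKO clones along the x axis, markers for the ChIPs and crosses for the IgG-IgG control. At Tbr1, Bcl11b and Fem1al every DKO value is below every WT value of the same ChIP, as it is for both reChIPs at Nkx2-4 and for K27-K4 at Colgalt2, where the reChIPs are at 1.74 or higher in DKO.

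Zfp316, whose exon region had the highest E14 mean away from promoters, was lower in 3 of the 4 ChIPs. Its K27-K4 was 3.72 and 3.02 in WT and −1.07 and 0.06 in DKO, a difference of −3.88 ± 0.40. Its total H3K4me3 differed by −1.46 ± 0.50, which did not pass (adjusted p = 0.072). Regions near H2-Q5 and Gm8909 were also among the largest falls, and belong to the class I histocompatibility family of similar genes. Reads were kept above a mapping quality of 20, and the effect of similar copies on these values was not tested. A 1200 bp intergenic region 108 kb from Sem1 had 22 and 42 K4-K27 reads in WT and 0 in both DKO clones.

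Gains in DKO were few, and the largest rested on low counts. The largest K4-K27 gain was in an intron of Gm34099, 47.3 kb from Scrg1 (chr8:57407701-57408600), with 0 and 6 reads in WT and 33 and 22 in DKO (adjusted p = 0.00053). Its K27-K4 did not follow, at 0.69 and 1.15 in WT and 0.93 and 0.45 in DKO. An intergenic region 2.62 kb from Dppa3, a maternal factor of the early embryo, had K4-K27 of −1.86 and 0.68 in WT and 1.34 and 1.20 in DKO, a difference of 1.86 ± 0.55. WT clone 57, whose K4-K27 library had the most regions at 0 reads, was the lowest at both places. Without it the difference was 2.04, against 3.30, in the intron of Gm34099, and 0.59, against 1.86, near Dppa3. The number of K4-K27 gains also moved with each clone left out, in the set and over all regions tested. By voom on reads recovered from the values, 0 regions of the set and 1 of all regions tested were gains in K4-K27. The largest K27-K4 gain, in an intron of Dock4, rested on 1 and 5 reads in WT and 12 and 19 in DKO. That region was also the only one that touched an E14 total H3K4me3 region without sharing a base. Promoter islands gave 0 gains in K4-K27 and in K27-K4 by limma, and 0 with libraries centred or at an unadjusted p under 0.05.

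The gene families at the 825 promoter regions, which covered 908 genes, divided as follows between this set and regions with both totals. Of all 24746 genes with a start site, 908 were in the set, 2601 at regions with both totals and 10213 at regions with H3K4me3 alone. The differences between lists were not tested. Of 39 Hox genes, which set position along the body axis, 38 lay at regions with both totals and only Hoxb1 at an H3K27me3-only region. Of 128 other homeobox factors, 22 were in the set and 93 at regions with both totals. For Sox, Fox, Gata, Tbx and bHLH factors these counts were 18 and 56 of 121, and for Wnt pathway genes 9 and 21 of 41. Cadherins and protocadherins were 31 and 28 of 92, neurotransmitter receptors 27 and 33 of 116, and solute carriers 31 and 44 of 396. Of 20 pluripotency factors and 81 ribosomal protein genes, 0 were in the set, and 12 and 55 lay at regions with H3K4me3 alone. Of 1460 olfactory and vomeronasal receptors, 2 were in the set. At Hoxb1, total H3K27me3 was 1.72 and 1.01 in WT and 1.78 and 1.14 in DKO, and total H3K4me3 was −0.03 and −0.20 in WT and −0.39 and −0.36 in DKO.

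Among all 825 promoter regions, 87 (10.5%) were lower in DKO in K4-K27 and 152 (18.4%) in K27-K4, with medians of −0.51 and −0.50. Over all regions tested the shares were 3.45% and 7.14%. The list genes named with a difference in the next 3 paragraphs were chosen after their values were seen, apart from Nkx2-4, Tlx3, Tbx1, Nog, Sstr2, Grik1, Slit1, Tex12 and Ddx4.

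Developmental regulators gave the following counts. Of 20 regions at homeobox factors other than Hox, 3 (15.0%) were lower in K4-K27 and 4 (20%) in K27-K4. They included Vsx1, a factor of the retina (−2.36 ± 0.52 in K4-K27), and Lhx3, a factor of pituitary and motor neurons (−1.71 ± 0.49). Pax1, a factor of the vertebral column, differed by −1.27 ± 0.41 in K27-K4, which was called, and by −1.07 ± 0.49 in K4-K27, which was not. The difference between the ChIPs was not tested. Nkx2-4 differed by −1.03 ± 0.71 in K4-K27 and Tlx3 by −0.43 ± 0.62, and neither was called. Of 17 regions at Sox, Fox, Gata, Tbx and bHLH factors, 0 were called by limma and 0 by voom in either reChIP, with 1 and 2 at an unadjusted p under 0.05. Their medians were −0.70 and −0.68, and Tbx1 differed by −0.79 ± 0.57 in K4-K27. Of 9 regions each at Wnt pathway genes and at BMP, TGF-beta, FGF, Notch and hedgehog signals, 0 were called by limma and 0 by voom, and 0 had an unadjusted p under 0.05. Nog differed by −0.60 ± 0.66 in K4-K27.

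Ion channels and receptors of neurons came next. Of 15 regions at potassium channels, 3 (20%) were lower in K4-K27 and 5 (33.3%) in K27-K4, among them Kcns1 (−2.74 ± 0.51 in K4-K27) and Kcnv1 (−2.82 ± 0.52). Of 27 regions at neurotransmitter receptors, 7 (25.9%) and 9 (33.3%) were lower. They included the dopamine receptor Drd5 (−2.75 ± 0.51 in K4-K27 and −2.93 ± 0.36 in K27-K4), the galanin receptor Galr1 (−2.37 ± 0.53 and −2.84 ± 0.37), the somatostatin receptor Sstr2 (−1.91 ± 0.49 and −2.06 ± 0.39) and the kainate receptor Grik1 (−2.08 ± 0.52 and −1.93 ± 0.45). Of 13 regions at G protein coupled receptors of the Adgr and Gpr families, 3 (23.1%) and 4 (30.8%) were lower, among them Gpr149 (−2.91 ± 0.52 and −3.21 ± 0.35). Of 8 regions at axon guidance genes, 1 (12.5%) and 2 (25%) were lower, the first being Slit1, a repellent of axons (−2.20 ± 0.54 in K4-K27). The 5 regions at sodium and calcium channels gave 0 calls by limma and by voom, with 0 and 1 at an unadjusted p under 0.05.

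Of 29 regions at cadherins and protocadherins, 14 (48.3%) were lower in K27-K4 and 2 (6.90%) in K4-K27, with medians of −0.94 and −0.67. The 2 were Pcdhb7 (−1.68 ± 0.51 in K4-K27) and Pcdhb21 (−2.28 ± 0.51). Since clustered protocadherin genes are neighbours with similar sequence, these regions are not independent of each other. Of 31 regions at solute carriers, 7 (22.6%) were lower in K4-K27 and 11 (35.5%) in K27-K4, among them the noradrenaline transporter Slc6a2 (−2.31 ± 0.49 and −2.52 ± 0.39). Of 12 regions at collagens and matrix genes, 2 (16.7%) and 2 (16.7%) were lower in K4-K27 and K27-K4, with Col19a1 at −3.09 ± 0.50 and −2.76 ± 0.40. Of 5 regions at germline genes, 2 (40%) and 3 (60%) were lower, Ddx4 and the meiosis gene Tex12 (−2.65 ± 0.58 in K4-K27) in both.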

How the data were processed

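Chromatin of mouse embryonic stem cells was fixed with formaldehyde, digested with MNase and taken through reChIP, giving 26 libraries (9 of E14 and 17 of clones) in 12 region tables. Each value is the log2 of RPM per kb of region, as the authors deposited it from SeqMonk. Per their methods, reads with a mapping quality above 20 were kept, duplicates were retained and reads were extended by 200 bp. The methods name no subtraction of IgG-IgG from these values. The submitters' processing notes name Trim Galore 0.6.6, BWA 0.7.13, SAMtools 1.9, Picard 2.6.0, MACS 2 and deepTools 3.5.0, and the build mm10. The methods describe EPIC2 peaks called in each replicate against IgG-IgG. The regions of these tables have edges on a 150 bp grid, which is not the bin size stated for those peaks, so they are another set of calls. How they were called is not given in the sources used here. Low values were whole multiples of 1 read in all libraries (tolerance 0.05), with 0 reads entered as 0.9. The tables also held 32 columns that match no sample of the series, and they were not used.

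Regions were annotated with 30213 RefSeq start sites. A CpG island was a 500 bp window, moved by 50 bp, with a GC fraction of at least 0.55 and an observed to expected CpG ratio of at least 0.65. Clones were compared with limma 3.58.1 (R 4.3.3) over all 24540 regions of the E14 K4-K27 table, with trended, robust variance and Benjamini-Hochberg adjustment over all of them. Members were counted afterwards. The authors used edgeR on read counts at consensus peaks, and limma was used here because the deposited values are log2. ± after a fitted difference is its SE. DKO and WT were each 2 separate clones. The variance of each region was drawn towards a trend over all regions tested. A p-value therefore rests mostly on that trend and does not measure the region's own spread between clones. Tests were checked on simulated data with 200 changed regions. For DKO against WT, a change of 2 log2 units was recovered in 2.5% of them in K4-K27, 48% in K27-K4, 11% in total H3K4me3 and 71.5% in total H3K27me3. A change of 4 was recovered in 73%, 74%, 72.5% and 93.5%. Counts of calls are therefore not compared between ChIPs. Python 3.11.15, pandas 2.3.3 and pysam 0.24.0 were used for the rest.

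The regions, gene lists and tests were chosen with earlier results of these data known. Named regions were the study's own loci, the 10 promoter and 5 other regions with the highest E14 reChIP mean, the 5 widest, the 10 largest called differences per test and direction, and up to 4 regions per gene list. A region takes the name of the gene whose start site it covers, or else of the nearest one.

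ChIPs of 1 clone come from the same cell line, so comparisons between ChIPs could be paired. The correlation of same-clone deviations was −0.146 in WT and −0.110 in DKO for the totals, and 0.027 and 0.041 between the reChIPs. It was 0.371 and 0.179 between K4-K27 and total H3K4me3, and 0.153 and 0.255 between K27-K4 and total H3K27me3.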

Additional observations from a re-analysis of the deposited data

Results flagged for a closer look

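Of the H3K27me3-only regions, 1 differed between genotypes in the gap between its totals by a test of the difference itself, limma's interaction term. It is an intergenic region of 600 bp, 21.6 kb from the nearest start site, that of Ercc6 (chr14:32491351-32491950). Total H3K4me3 was −1.92 and −3.32 in WT clones 57 and 58 and −0.33 and 0.31 in DKO clones 43 and 53. Total H3K27me3 was 0.93 and 1.17 in WT and 0.45 and 0.46 in DKO. The excess of H3K27me3 over H3K4me3 differed by −3.20 in DKO against WT (adjusted p = 0.00628), and 0.0122% of all regions tested were called in this direction. The H3K4me3 values rest on 3 and 1 reads in WT and on 13 and 18 in DKO, and the part of these low counts in the difference was not tested.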

How the results depend on the processing

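With each library centred on its median, the members called were 2115 for total H3K27me3 above total H3K4me3, 1663 for K27-K4 above K4-K27 and 305 for K4-K27 above total H3K4me3. For K27-K4 above total H3K27me3 they were 81, with 97 the other way, so its direction reversed. Without trended or robust variance, 77 were lower in DKO in K4-K27, 108 in K27-K4, 20 in total H3K4me3 and 13 in total H3K27me3. Over all regions tested these counts were 603, 641, 568 and 68. In the set, 50 were then lower in both reChIPs and 3 in all 4 ChIPs. For K4-K27 above total H3K4me3, 301 were called, against 1147 over all regions tested. With voom on the recovered reads, 42 were lower in total H3K4me3, against 736 over all regions tested, and 21 were lower in all 4 ChIPs. Leaving out the lowest quartile gave 563 of 1658 (34.0%, against 39.9% of 2436) for total H3K27me3 above total H3K4me3, and 1533 of all 18405 regions left. In the WT clones alone, 439 were called for that comparison, 82 for K27-K4 above K4-K27 and 2 for K4-K27 above total H3K4me3. Over all regions tested these counts were 1533, 378 and 14. Testing shared regions only, chosen after seeing the data, gave 301 for K27-K4 above K4-K27, against 887 of all 21857. An adjusted p alone gave 641 of 2436 for K27-K4 above total H3K27me3, against 13120 of all 24540 regions tested. Asking for 2 log2 units above IgG-IgG left 656 regions. The cause of these changes was not tested.

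Leaving out each clone in turn gave 33 to 91 lower in DKO in K4-K27, 99 to 492 in K27-K4, 0 to 320 in total H3K4me3, 6 to 187 in total H3K27me3, 33 to 77 in both reChIPs and 0 to 63 in all 4. It gave 551 to 1042 for total H3K27me3 above total H3K4me3, 89 to 505 for K27-K4 above K4-K27, 2 to 746 for K4-K27 above total H3K4me3 and 268 to 365 for K27-K4 above total H3K27me3. The clone left alone in its genotype is then assumed to vary like the others. With the clone as a replicate block, the paired counts were 963, 162, 629 and 353 for those comparisons between ChIPs, and none of these moved by over 1.5 times. Calls of K4-K27 below total H3K4me3 went from 3 to 6. The block ended the call of K27-K4 above K4-K27 at the regions named for Dpp6 and Gm4791 and changed no other named call. DKO and WT clones share no numbers and were not paired. Of the values of named regions under all alternatives, 1267 kept their direction and side of the threshold, 0 reversed and the rest kept their direction only. The tested clone libraries held a median of 32 to 139.5 reads per region.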
